A study of Drosophila melanogaster with 11 samples.

Results

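RNA of control (Ctrl) Drosophila melanogaster embryos at zygotic genome activation was compared with RNA of unfertilized Ctrl eggs, to ask which maternal RNAs were gone, which were still present and which RNAs had appeared by stage 5 (nuclear cycle 14). The comparison took every Ctrl library with a sample record, 3 of stage 5 embryos (replicates 2, 3 and 4) and 4 of unfertilized eggs (replicates 1 to 4), 7 of the 11 RNA-seq libraries of the series. The other 4 libraries are stage 5 embryos depleted of the chromatin remodeler Domino by maternal RNAi (DomKD, genotype t216), and they are used below only as further libraries of the same stage. Eggs and Ctrl embryos carry the same genotype code, t180. The methods list a TRiP control line and a germline Gal4 driver, mat-alpha-Gal4, but do not say whether the Ctrl mothers carried the driver. The age of the eggs, the age of the embryos within stage 5 and the number of either in a library are not given in the sources used here.

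The egg of the fly is filled by the nurse cells with RNA that drives the first nuclear cycles, while its own genome is silent. Laying activates the egg whether or not it is fertilized, and activation starts the destruction of part of the maternal RNA through RNA-binding proteins such as Smaug. A further set of maternal RNAs is destroyed only after the zygotic genome has been switched on, among other things by zygotic microRNAs, and at stage 5 the zygotic genome patterns the blastoderm while membranes close around the nuclei. An unfertilized egg thus holds maternal RNA and no zygotic RNA, and a maternal RNA already lost from the eggs when they were collected cannot be seen as cleared here.

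Counts over genes summed to 15387133 to 17700171 per egg library and 12642275 to 16310645 per embryo library. Of 17753 genes, 12916 had a count in the 7 libraries and 7565 averaged 10 counts or more and were tested with edgeR (quasi-likelihood test, Benjamini-Hochberg adjustment over all genes tested). The biological coefficient of variation, the spread between libraries of a group beyond counting error, was 8.43%. Levels are given as TPM, counts per gene length scaled to the same total in every library, with the libraries of a group in the order of their replicate numbers, and changes are log2 of embryos over eggs with their standard error. Nothing in the labels says that libraries came from separate collections, so the p-values cover the spread between these libraries, which may be in part technical. All values are relative to the RNA of the library: less of an RNA and more of the others cannot be told apart.

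Marker genes matched the labels of the libraries, except for bicoid (bcd). The blastoderm genes ftz and sna had no count in any egg library, while ftz reached 44.5, 37.5 and 52.2 TPM and sna 34.0, 35.1 and 46.9 TPM in the embryo libraries. Of the other blastoderm markers, eve and nullo had no egg count, twi had 1 and zen had 8, 4, 5 and 5, and all were higher in embryos. The egg determinant osk lay at 1074, 1033, 1084 and 1028 TPM in the egg libraries and at 258, 138 and 173 TPM in the embryo libraries. The egg markers nanos and png were also lower in embryos. The egg marker bcd did not separate the groups, with 137, 119.6, 129 and 135 TPM in eggs and 179, 137 and 109 TPM in embryos. Of 17 eggshell, yolk and follicle cell genes, 12 had at most 3 counts in every library and 5 of those no count at all, and their summed level was 0.871 to 2.08 TPM in eggs. In embryos the sum was 2.03 to 22.8 TPM, the highest value coming from the yolk protein genes Yp1, Yp2 and Yp3 in the library of replicate 3, where Yp1 stood at 7.47 TPM against 0.307 and 0.380 TPM in the other two. Later neuron and muscle genes (12 listed) summed to 1.74 to 2.34 TPM in embryos. Whether the library of embryo replicate 3 carries other tissue was not tested. Results of the comparison without it are given below. The library of Ctrl embryo replicate 2 was the closest to the eggs, with a Spearman correlation across genes of 0.776 to 0.781 with the egg libraries against 0.739 to 0.753 for the others.

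Eggs and embryos differed in most RNAs. 2963 genes were lower in embryos (39.2% of those tested) and 3526 were higher (46.6%), and in 84.9% of genes the levels of the groups did not overlap. A gene counted as maternal if 3 or more egg libraries showed it above 5 TPM, which held for 6324 of the genes tested. Of these, 1085 were cleared (at least 4-fold lower), 796 partly cleared (lower by 2-fold up to 4-fold), 3905 kept (the 95% interval of the change within 2-fold) and 147 raised (at least 2-fold higher), which left 391 in no class. Another 400 genes were newly made by the rule used here, which asks for no maternal level, a mean over 5 TPM in embryos and a rise of at least 4-fold. For comparison, 25.8% of all genes tested were lower by at least 2-fold, 13.4% higher by at least 2-fold, 14.8% lower and 10.2% higher by at least 4-fold, and 51.6% were kept, a class open to maternal genes alone. Scaled to the ribosomal protein RNAs in place of all genes, the median change over all genes fell by 0.48 on the log2 scale, so that 72.3% of called genes were lower, against 45.7% in the comparison reported here, and the count of raised genes dropped to 53. Kept genes with a change between 0 and 0.48 thus turn negative on that scale. Without embryo replicate 3, the library with yolk protein RNA, 2894 genes were lower and 3415 higher, 1022 cleared and 393 newly made.

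**Figure D1:**
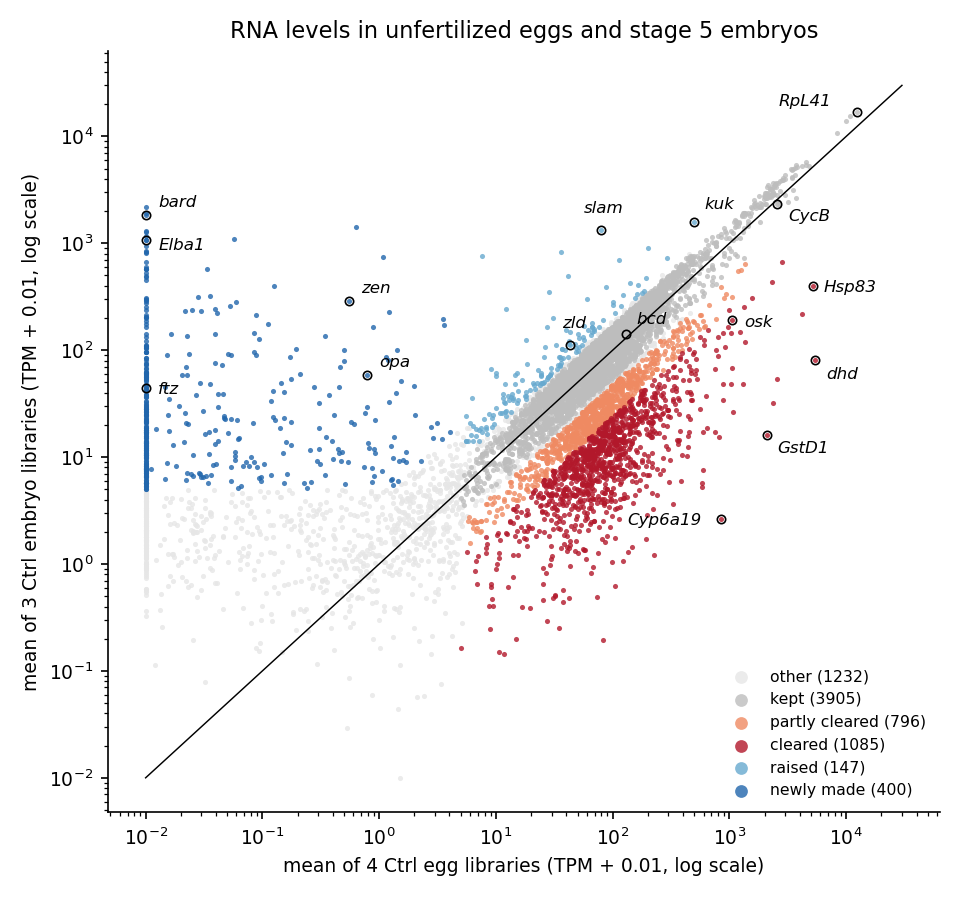
Mean level of each tested gene in the 4 Ctrl egg libraries (x axis) and the 3 Ctrl embryo libraries (y axis), in TPM with 0.01 added, on log scales, colored by class; the line marks equal levels. Genes with no count in any egg library stand in the column at the left edge, and the 1085 cleared genes lie below the broad band of 3905 kept ones.

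The classes took very different shares of the RNA. Cleared genes held 18.04% ± 0.175 (SD, n = 4) of the counts in eggs and 2.21% ± 0.288 (SD, n = 3) in embryos. Partly cleared genes went from 11.1% ± 0.0616 to 4.13% ± 0.511, with SD and n as before. Kept genes went from 65.1% ± 0.257 to 81.3% ± 0.887, so their share grew while the median change of a kept RNA was only 0.30. Raised genes held 1.34% ± 0.0543 of the counts in eggs and 4.30% ± 0.425 in embryos. Newly made genes, at most 0.0155% of the counts in an egg library, held 2.79%, 3.06% and 3.63% in the embryo libraries. Replicate 2 of the embryos had the lowest share of newly made and the highest share of cleared RNA (2.53%, against 1.98% and 2.12%).

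**Figure D2:**
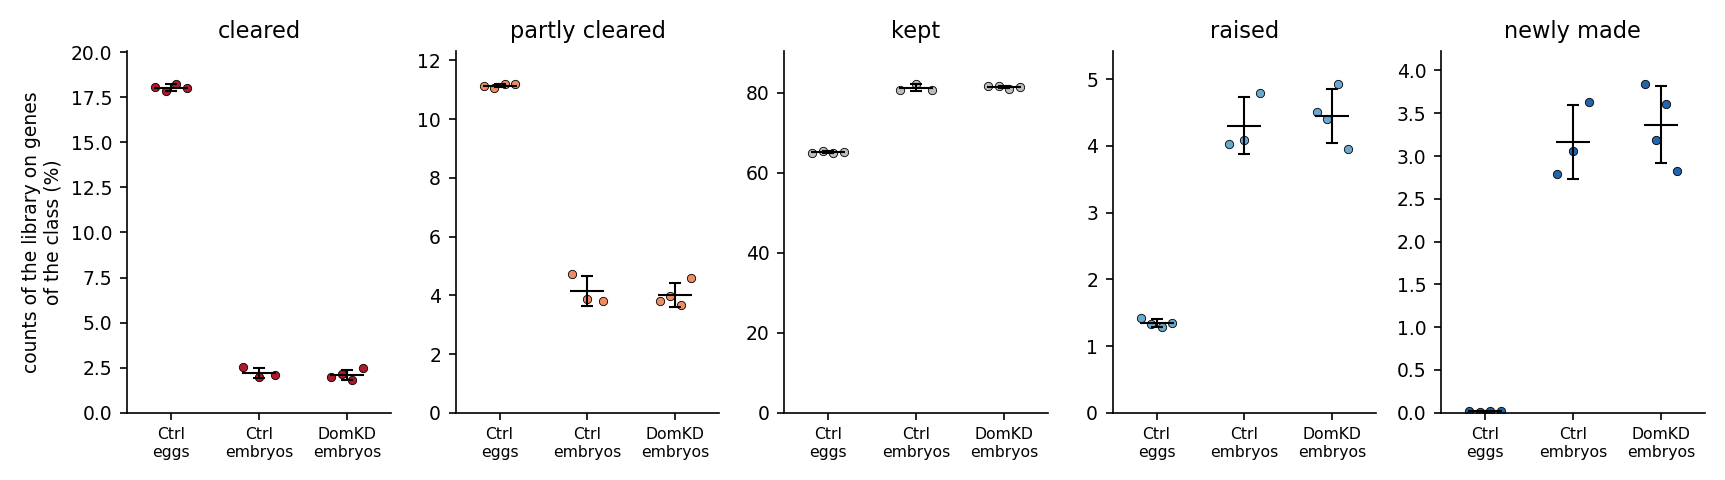
Percent of each library's counts that fell on genes of a class, for the Ctrl eggs (n = 4), the Ctrl embryos (n = 3) and the DomKD embryos (n = 4); points are libraries, dashes the means and bars the SD. The cleared class falls from 18.04% to 2.21%, and the DomKD libraries, which no class rule used, lie beside the Ctrl embryos in every panel.

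The most abundant of the cleared RNAs came from deadhead (dhd; chromosome X, 5312171 to 5313125, plus strand, in dm6), a thioredoxin of the female germline that helps to strip the protamines from sperm chromatin at fertilization. Its level was 5980.4, 5367, 5184 and 5246 TPM in the egg libraries and 84.9, 73.5 and 83.6 TPM in the embryo libraries, a change of -6.02 (standard error 0.08, adjusted p = 2.25e-11). The lowest of the egg libraries was thus far above the highest of the embryo libraries, as for all genes of the class named below. The heat shock genes Hsp83 and Hsp26 followed. Hsp83, the fly Hsp90, went from 5348, 5112, 5195 and 5086 TPM to 489, 339.5 and 377 TPM, a change of -3.64 (standard error 0.09, adjusted p = 1.46e-10). Hsp26, a small heat shock protein, changed by -4.22 (standard error 0.14, adjusted p = 7.70e-10), and p23, a co-chaperone of Hsp90, by -2.30 (standard error 0.07, adjusted p = 4.77e-10). Others among the 15 most abundant cleared RNAs encode the cyclophilin Cyp1 (-2.02), the glycolytic enzyme Gapdh2 (-5.52), the glutathione S-transferase GstD1 (-6.94), the peroxiredoxin Prx2 (-3.46), the nascent chain binding protein Nacalpha (-4.69) and the yolk protein receptor yolkless (yl, -2.35). The list also holds CtsK1 (-2.37) and CG6770 (-6.13), along with nanos, exu and osk, described below.

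The 10 largest falls, taken over genes that averaged 50 counts or more and whose groups did not overlap, were led by CG15047 (-8.53, standard error 0.26, adjusted p = 3.99e-10), whose span overlaps that of Bx on the same strand, and the cytochrome P450 gene Cyp6a19 (-8.27, standard error 0.15, adjusted p = 2.58e-11). Cyp6a19 stood at 896, 793, 857 and 863 TPM in eggs and at 3.75, 1.74 and 2.40 TPM in embryos. GstD1 (2075, 2042, 2107 and 2096 TPM against 21.4, 12.9 and 14.4 TPM) and its neighbor GstD3 (-6.68) were also among them, and the rest were CG4476, CG31075, CG9926, CG4842, CG17896 and CG14131, with changes of -7.46 to -6.70. Of all 1085 cleared RNAs, 210 were lower by at least 16-fold, and 220 were at 5 TPM or less in every embryo library. The families of these detoxification genes, looked at after the values had been seen, moved in both directions: of 25 glutathione S-transferase genes tested, 9 fell and 4 rose by at least 2-fold (GstE14 had no egg count and reached 7.24, 5.46 and 11.4 TPM), and of 24 P450 genes tested 13 fell and 6 rose (Cyp310a1, with no egg count, reached 45.8, 39.8 and 60.4 TPM). Over all genes 25.8% fell and 13.4% rose by that much.

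Genes that complete meiosis and activate the egg split into cleared and kept RNAs. Of 19 such genes, 7 fell by at least 2-fold (25.8% of all genes), none rose by that much, and 12 were kept. Cleared were cortex (cort), the female meiosis activator of the anaphase-promoting complex, with 109.8, 95.1, 109 and 105 TPM in eggs and 1.87, 1.39 and 1.94 TPM in embryos (-5.86, standard error 0.11, adjusted p = 3.28e-11), and the Mos kinase (-5.13). The PAN GU kinase, which drives translation at egg activation, lost the RNA of its catalytic subunit png (190.1, 175, 179.8 and 175 TPM against 10.99, 9.31 and 7.98 TPM, -4.19, standard error 0.09, adjusted p = 6.22e-11) and of its subunit gnu (-2.62). The RNA of its subunit plu was kept (0.27). The Polo inhibitor matrimony (mtrm), whose span overlaps that of Exo70 on the same strand, changed by -4.12, and endos, a phosphatase inhibitor of meiotic maturation, by -2.79. The mitotic activator fzy (0.78), the cyclin CycB3 (0.81), polo (0.16) and the meiotic Cdc25 phosphatase twine (twe, 0.37) were kept, and polo and twe turned negative when scaled to ribosomal protein RNAs (-0.31 and -0.10).

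Among the maternal genes that set up the body axes, 7 of 18 fell by at least 2-fold (25.8% of all genes), none rose, and 11 were kept. The anterior determinant bicoid (bcd; chromosome 3R, 6755842 to 6759466, minus strand) was among those kept, with 137, 119.6, 129 and 135 TPM in eggs and 179, 137 and 109 TPM in embryos. Its change of 0.17 (standard error 0.12, adjusted p = 0.200) did not pass the test, was negative, -0.29, on the ribosomal protein scale, and passed the test, at 0.32, without embryo replicate 4. Exuperantia (exu), which is needed to localize bcd RNA in the oocyte, went from 1080.4, 986, 1126 and 1090.0 TPM to 29.5, 24.7 and 24.6 TPM, a change of -5.29 (standard error 0.07, adjusted p = 2.25e-11). The posterior genes oskar (osk, -2.43, standard error 0.15, adjusted p = 1.04e-07) and nanos (-2.99, standard error 0.09, adjusted p = 2.95e-10) were cleared. Their embryo levels were well above 0, with 258, 138 and 173 TPM of osk and 179, 126 and 143 TPM of nanos, and in bulk RNA fewer cells that hold an RNA and less RNA in each cell cannot be told apart. In the dorsoventral pathway the RNAs of the receptor Toll (Tl, 0.63), the inhibitor cactus (cact, 0.71) and the kinase pelle (pll, -0.09) were kept. The RNA of the NF-kB factor dorsal (dl), which these control, was cleared, from 39.9, 37.2, 39.9 and 41.8 TPM to 4.38, 2.59 and 3.62 TPM (-3.44, standard error 0.12, adjusted p = 1.17e-09), and the ligand gene spz was partly cleared (-1.62). The terminal receptor torso (tor) was kept (0.23) and trunk (trk), which encodes its ligand, was cleared (-3.56).

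Germ plasm and piRNA genes, which make and protect the germ cells, had mostly lower RNA levels in embryos. Of 20 genes, 12 were lower by at least 2-fold (25.8% of all genes) and none was higher by that much, with a median change of -1.84 against 0.14 for all genes tested. The RNA helicase vasa (vas), whose span overlaps that of solo on the same strand, went from 264, 240.5, 299 and 285 TPM to 22.7, 21.0 and 15.8 TPM (-3.71, standard error 0.12, adjusted p = 6.36e-10), and polar granule component (pgc), a repressor of transcription in pole cells, from 802, 759, 749.9 and 749 TPM to 121, 87.9 and 93.2 TPM (-2.87, standard error 0.09, adjusted p = 3.75e-10). Also cleared were the heterochromatin piRNA factor deadlock (del, -3.94), the transcription factor ovo (-3.22), tudor (tud, -2.69) and armi (-2.16). The piRNA-binding protein genes did not move as a group: piwi was partly cleared (-1.79), while aub (0.75) and AGO3 (0.81) were kept. The list includes nanos and Hsp83, which other lists hold as well.

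Of 20 genes of translational repression and RNA decay tested, 15 were kept and 5 fell by at least 2-fold, beside 51.6% and 25.8% of all genes. Only maternal genes can be kept, and all 20 are maternal. Of all 6324 maternal genes tested, 3905 were kept, 1085 cleared and 796 partly cleared. On the ribosomal protein scale 11 of the 20 were kept and 7 fell. Smaug (smg), the activator of maternal RNA decay, had 989.8, 929, 1035 and 988 TPM in eggs and 1015, 904 and 802 TPM in embryos, a change of -0.06 (standard error 0.06, adjusted p = 0.378) that did not pass the test. The RNA helicase me31B (-0.43), its partner trailer hitch (tral, -0.55), the deadenylase subunits Pop2 (-0.15) and twin (-0.57) and the decapping enzyme DCP2 (0.19) were kept. The genes orb (-2.95) and bru1 (-3.47, standard error 0.16, adjusted p = 7.31e-09), whose products regulate translation in the oocyte, were cleared. The genes cup and BicC could not be read: each spans or lies in another gene on the same strand, and BicC had at most 1 count and cup none in any of the 7 libraries.

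**Figure D3:**
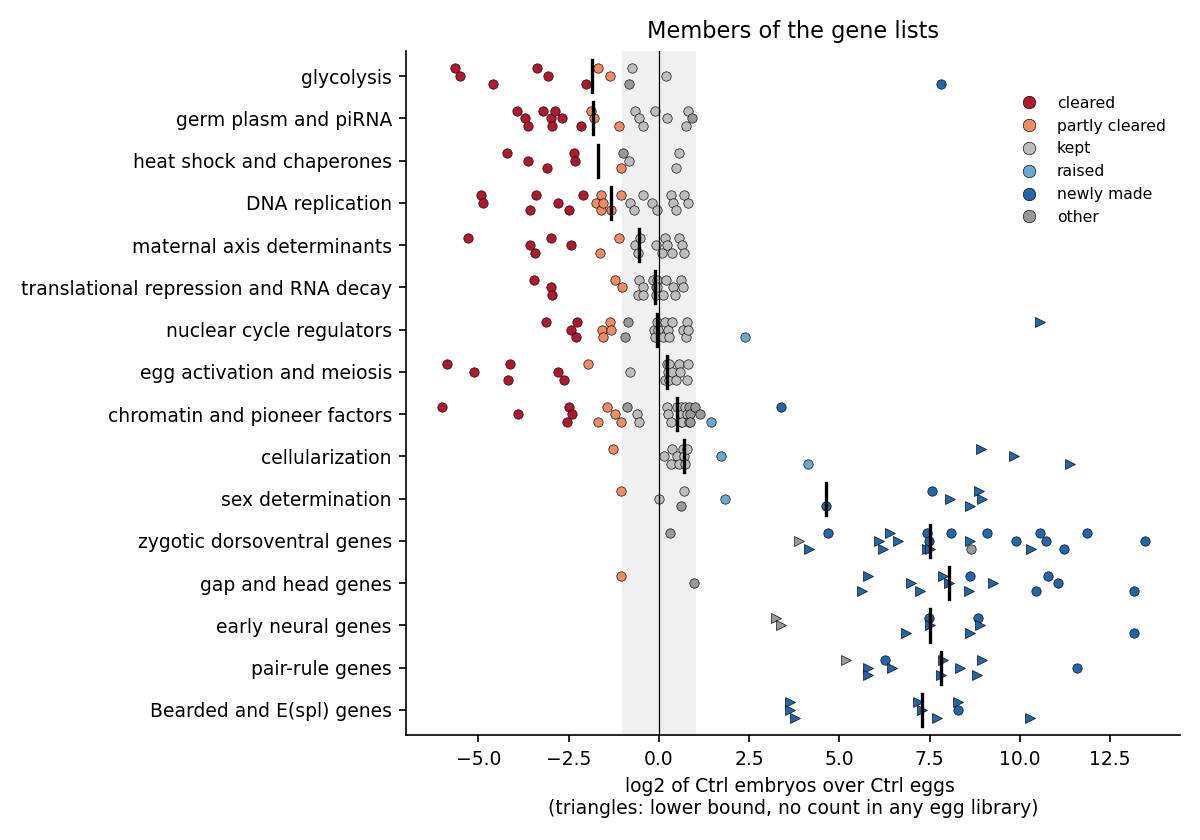
log2 change of each tested member of 16 gene lists, colored by class, with the median of each list as a bar; triangles are lower bounds for genes with no count in any egg library, and the gray band marks a 2-fold change either way. Lists of maternal functions spread to the left, and the lists of patterning genes lie far to the right with few exceptions (hb, cnc and ush). Most patterning genes passed the filter only through the embryo libraries.

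RNAs of sugar metabolism and protein folding were lower in most cases. Of 12 glycolysis genes, 8 fell by at least 2-fold (25.8% of all genes) and the median change was -1.85. Triosephosphate isomerase (Tpi) went from 787, 809, 822 and 820.0 TPM to 21.4, 10.4 and 14.6 TPM (-5.65, standard error 0.17, adjusted p = 3.43e-10), and Gapdh2 from 2497, 2449.9, 2608 and 2656 TPM to 64.1, 44.8 and 51.8 TPM (-5.52, standard error 0.10, adjusted p = 2.50e-11). Pgi (-4.59), Pgk (-3.37) and PyK (-3.07) followed, Ald1 was kept (0.21), and lactate dehydrogenase (Ldh), near 0 in eggs, was newly made at 8.91, 6.93 and 10.02 TPM. Gapdh1 (-2.03) is a near copy of Gapdh2, so reads shared by both are uncertain. Of 10 chaperone genes tested 6 fell by at least 2-fold (25.8% of all genes), among them the mitochondrial Hsp60A (-3.11), whereas the constitutive Hsc70-4 was kept at 4024 ± 228 TPM in embryos (SD, n = 3; 0.49).

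Within the proteasome the parts differed. This split, and the complexes that follow, were chosen after the values were seen, so their counts are a description. Beside them stand 25.8% of all genes lower by at least 2-fold and 3905 of 6324 maternal genes kept. All tested proteasome subunits are maternal. All 13 tested subunits of the proteasome core, the barrel that cuts proteins, were kept, with changes of 0.11 to 0.48. Of the 18 subunits of the regulatory particle, which captures and unfolds the substrate, 12 fell by at least 2-fold, with a median of -1.41. The deubiquitinase Rpn11 of this particle went from 476, 467, 479 and 470.0 TPM to 36.0, 30.0 and 36.8 TPM (-3.73, standard error 0.07, adjusted p = 3.35e-11), while Rpn12 (0.52) and Rpt4 (0.40) of the same particle were kept. Scaled to ribosomal protein RNAs the medians were -0.09 for the core and -1.89 for the regulatory particle. The core subunit Prosalpha1 had 3 to 9 counts in every library and was not tested.

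All 8 subunits of the CCT chaperonin, which folds actin and tubulin, fell by at least 2-fold (-2.86 to -1.24). CCT8, with the largest fall, went from 394, 392, 392 and 407 TPM to 61.4, 46.3 and 49.7 TPM (-2.86, standard error 0.07, adjusted p = 1.67e-10). Of 18 aminoacyl-tRNA synthetases, which load amino acids onto tRNAs, 11 fell, from AsnRS (-1.0003) to AlaRS (-3.51), and 5 were kept, such as IleRS (0.50) and TyrRS (0.43). Of 10 subunits of the translation initiation factor eIF3, 9 were kept, and the loosely bound subunit eIF3j alone fell, from 239, 229, 241 and 239 TPM to 39.9, 27.0 and 36.0 TPM (-2.74, standard error 0.10, adjusted p = 1.19e-09). All 7 tested subunits of the COP9 signalosome were kept, at 0.48 to 0.76. All tested members of these sets are maternal. The shares to set beside their counts are 25.8% of all genes lower by at least 2-fold and 3905 of 6324 maternal genes kept.

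**Figure D4:**
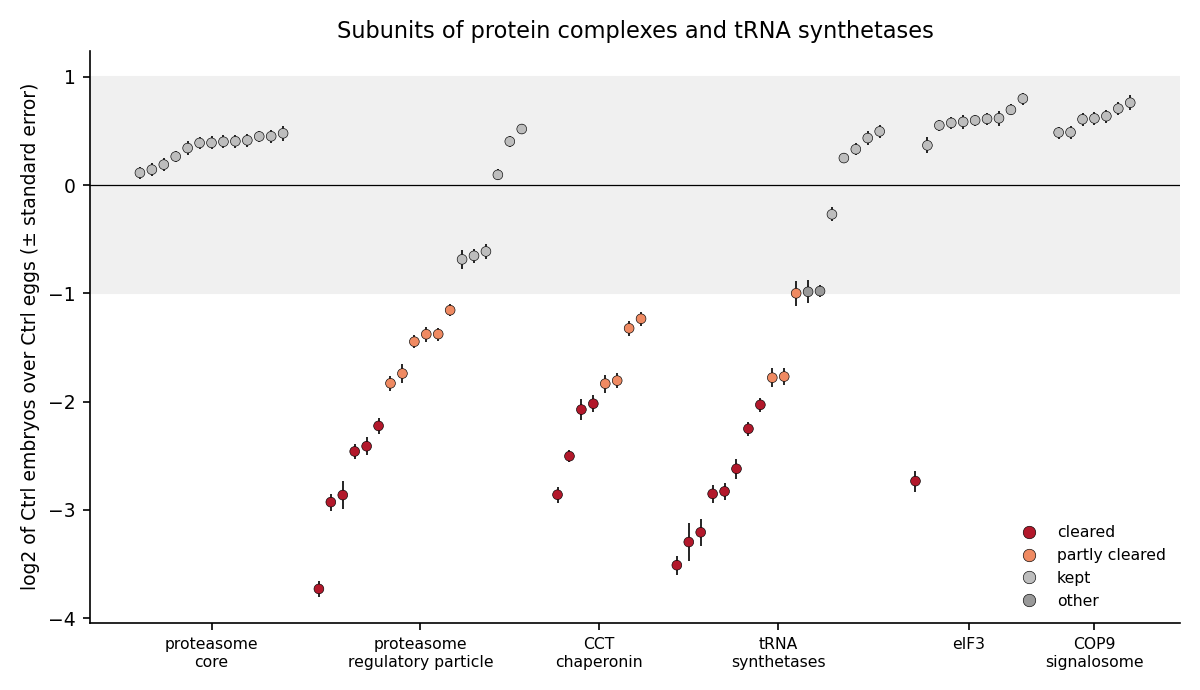
log2 change of embryos over eggs (y axis, with its standard error) for each tested subunit of 5 protein complexes and for the cytoplasmic tRNA synthetases, ordered within each set by size and colored by class; the gray band marks a 2-fold change either way. Every proteasome core subunit lies within the band, and every CCT subunit lies below it.

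RNAs of ribosomes and translation were among the most abundant of those kept. Of 93 cytoplasmic ribosomal protein genes, 85 were tested and all of these were kept (3905 of 6324 maternal genes tested), with changes of -0.01 to 0.74 and a median of 0.49, which the ribosomal protein scale sets to 0.01. RpL41 was the most abundant, at 12739, 12834, 11929 and 12371 TPM in eggs and 15667, 18235 and 17026 TPM in embryos. The elongation factors eEF1alpha1 (8360.3 ± 261 TPM in eggs, SD, n = 4; 0.41) and eEF2 (3737 ± 88.6 TPM, SD, n = 4; 0.59) were kept as well, and eEF1alpha1 was at -0.07 on the ribosomal protein scale. Other abundant kept RNAs were RpL39, RpS27A, RpLP2, RpL23, RpS18 and RpS3A, with changes of 0.30 to 0.56. Among mitochondrial ribosomal proteins, of 71 tested, 16 fell by at least 2-fold (28 on the ribosomal protein scale), a share close to the 25.8% of all genes. Of these 16, 11 were cleared, with mRpL38 (-5.02, standard error 0.12, adjusted p = 7.94e-11) in front. Of 58 nuclear genes of oxidative phosphorylation, 47 were kept and 6 fell (11 on the ribosomal protein scale), beside 25.8% of all genes that fell. The largest fall was that of UQCR-C2 of complex III (-3.17). RNAs of the mitochondrial genome had no count in any library.

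The DNA replication machinery, which copies the genome at each of the rapid early cycles, fell in part. Of 23 genes tested 13 were lower by at least 2-fold (25.8% of all genes) and 10 were kept, with a median of -1.32. The helicase activator Cdc45 went from 240.3, 229, 249 and 245 TPM to 8.54, 5.32 and 9.14 TPM (-4.93, standard error 0.13, adjusted p = 2.08e-10), and PolD1, the catalytic subunit of DNA polymerase delta, changed by -4.87 (standard error 0.10, adjusted p = 4.09e-11). Subunits of the origin recognition complex (Orc2 -3.57, Orc4 -3.40) and the ribonucleotide reductase subunit RnrS (1051, 969, 1050.4 and 1062 TPM against 164, 112 and 153 TPM, -2.80) were cleared. Within the Mcm helicase, Mcm7 was kept at 0.79 and Mcm3 was cleared at -2.10. The licensing factor gene dup (0.48) and its inhibitor gene geminin (0.35) were kept.

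The cyclins and Cdk1 of the nuclear cycles were kept, and 2 inhibitors of the cycle rose. Of 25 genes, 2 rose and 8 fell by at least 2-fold, beside 13.4% and 25.8% of all genes. CycB had 2545, 2440.2, 2631 and 2677 TPM in eggs and 2734, 2262 and 1953 TPM in embryos (-0.10), CycA changed by -0.14 and Cdk1 by 0.68, and the changes of CycA and CycB did not pass the test, although they did, at -0.20 and -0.18, without embryo replicate 2. Tribbles (trbl), which promotes the loss of Cdc25 proteins, rose from 59.3, 51.9, 66.7 and 65.1 TPM to 262, 308 and 344 TPM (2.39, standard error 0.12, adjusted p = 1.59e-08). Frühstart (Z600), a zygotic inhibitor of cyclin-dependent kinase 1, had no count in any egg library and reached 814, 1203 and 1509 TPM, at least 1519.8-fold higher. Z600 lies within the span of gdl on the same strand. Of the Cdc25 phosphatases, string (stg) was lower in embryos (250.2, 238, 280.3 and 303 TPM against 182, 126 and 123 TPM, -0.84, standard error 0.12, adjusted p = 6.10e-05) and met no class rule, while twe was kept. The checkpoint kinase genes grp (-1.33) and lok (-1.58) were partly cleared, and mei-41 (-2.43), the inhibitor dacapo (dap, -3.11) and the retinoblastoma factor Rbf (-2.30) were cleared.

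Of 31 chromatin genes, 14 were kept, 9 fell and 3 rose by at least 2-fold (12 and 1 on the ribosomal protein scale), beside 25.8% of all genes lower and 13.4% higher by that much. The pioneer factor zelda (zld), which opens chromatin of early zygotic genes, rose from 56.7, 43.5, 33.0 and 40.0 TPM to 114, 101 and 124 TPM (1.44, standard error 0.15, adjusted p = 6.20e-06), although it fell below a 2-fold change on the ribosomal protein scale. Polyhomeotic (ph-p), a Polycomb group gene, went from 1.104, 1.35, 1.20 and 1.37 TPM to 10.8, 11.9 and 15.3 TPM and met the rule for newly made genes. The variant histone gene His2Av was kept (1111 ± 18.7 TPM in eggs, SD, n = 4, and 1662 ± 9.29 TPM in embryos, SD, n = 3; 0.64), as was the remodeler gene dom (0.49). Cleared with dhd were other factors of the male pronucleus and of histone storage: Hira (-2.53) and yem (-2.39), which place histone H3.3 on paternal chromatin, and Jabba, which holds histones on lipid droplets, from 1045, 1014, 1054 and 1069 TPM to 87.2, 56.7 and 60.2 TPM (-3.89, standard error 0.12, adjusted p = 3.75e-10). The Polycomb methyltransferase E(z) was cleared (-2.49, standard error 0.11, adjusted p = 4.59e-09), its partners Su(z)12 (-1.43) and esc (-1.22) were partly cleared, and Caf1-55, a subunit shared with other complexes, was kept (0.62). The embryonic linker histone BigH1 was kept, with 704, 735, 715 and 695 TPM in eggs and 536, 467 and 342 TPM in embryos (-0.61). The replication-dependent histones could not be followed, since only 2 of 111 gene copies passed the filter.

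The germline tubulins left and the common ones stayed. alphaTub67C, the maternal alpha tubulin, went from 893, 858, 885 and 917 TPM to 39.1, 31.0 and 32.3 TPM (-4.64, standard error 0.07, adjusted p = 2.43e-11), and gammaTub37C, the maternal gamma tubulin, from 190.5, 199, 202 and 207 TPM to 11.9, 10.3 and 8.38 TPM (-4.22, standard error 0.10, adjusted p = 7.70e-11). alphaTub84B (0.78), betaTub56D (0.69), gammaTub23C (0.58), Act5C (0.57) and Act42A (0.61) were kept. Tubulin and actin genes are near copies of each other within each family, so the division of reads between them is uncertain.

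Partly cleared RNAs had a median change of -1.44. Members of the lists among them were the histone chaperone Nap1 (1432, 1347, 1350.4 and 1334 TPM against 674, 619 and 625 TPM, -1.04), the glycolytic enolase Eno (-1.67), the large subunit of ribonucleotide reductase RnrL (-1.59) and bel (-1.02) and Fmr1 (-1.22), which bind RNA. In the vacuolar ATPase, looked at after the values were seen, 4 of 17 tested genes fell by at least 2-fold, close to the 25.8% of all genes. All 4 were partly cleared, led by Vha13 (-1.81).

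The raised class, RNAs that the mother supplied and of which the embryo held more, held 147 genes, among them genes of cellularization and cell adhesion. Kugelkern (kuk), a nuclear envelope protein that elongates the nuclei at cellularization, had the highest egg level of the class, 501, 469, 511 and 517 TPM, and 1536, 1508 and 1715 TPM in embryos (1.73, standard error 0.06, adjusted p = 1.49e-09). Slow as molasses (slam; chromosome 2L, 6372388 to 6377284, plus strand), which is needed for the cellularization furrow, went from 77.7, 71.6, 81.5 and 86.1 TPM to 1068, 1321 and 1592 TPM (4.13, standard error 0.14, adjusted p = 8.55e-10). wech rose by 2.24, the transcription factor gene retn by 1.34, the centrosomal gene Nin by 2.68, fax by 1.49 and scyl by 1.17. E-cadherin (shg, 1.54), the polarity gene l(2)gl (1.004), the Hedgehog receptor component smo (1.17) and alphaTub84D (1.04) rose too, as did CG6398, CG13096 and CG9775 (1.003, 1.11 and 1.67), which with Elba2 and insv complete the 15 of highest egg level. On the ribosomal protein scale all 15 stayed higher in embryos, but only kuk, wech, Nin, fax, shg and CG9775 by at least 2-fold. Named after their values were seen, the adhesion protein gene Nrt (35.7, 35.6, 37.7 and 35.2 TPM against 726, 725 and 1011 TPM, 4.57), Cys (6.69), BNIP3 (4.37) and Septin5 (3.70) had larger rises than most. The polarity gene crb (1.38) and the Notch pathway genes Delta (1.16) and neur (1.49), also named afterwards, were raised, crb and Delta by less than 2-fold on the ribosomal protein scale.

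The ELBA complex, a boundary factor of the early embryo made of Elba1, Elba2 and Elba3, held maternal and newly made members. Elba1 had no count in any egg library and 1058, 1121 and 1036 TPM in the embryo libraries, at least 4112-fold higher. Elba3 had no egg count either and 786, 887 and 779.5 TPM in embryos, at least 3356-fold higher. Elba2 was already present in eggs at 296, 285, 304 and 292 TPM and stood at 630.0, 765 and 775 TPM in embryos (1.36, standard error 0.09, adjusted p = 1.84e-07). insv, a related BEN domain factor, changed by 1.39. On the ribosomal protein scale the rises of Elba2 and insv stayed under 2-fold. These genes were grouped after their values were seen.

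**Figure D5:**
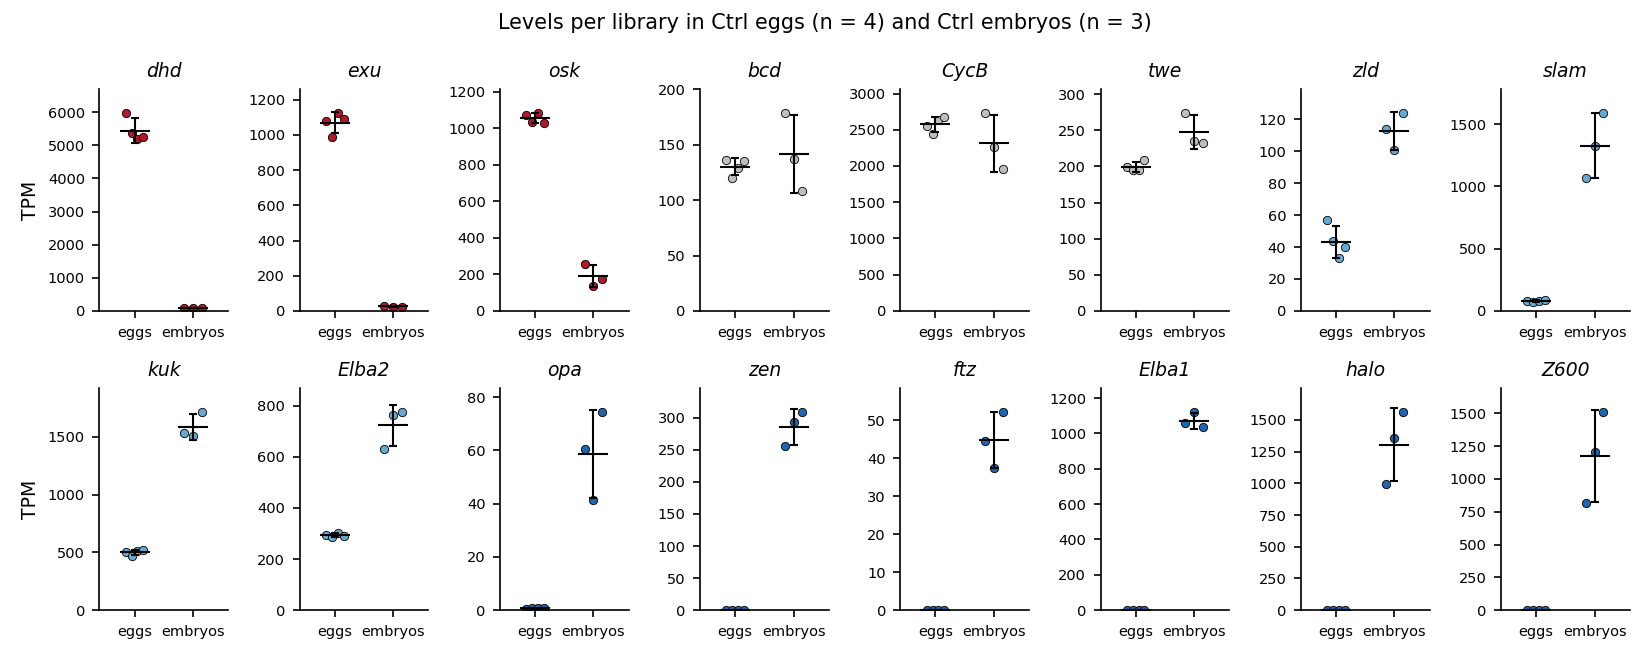
TPM per library in the Ctrl eggs (n = 4) and Ctrl embryos (n = 3) for 16 genes, with the mean as a dash and the SD as a bar; each y axis starts at 0 and points are colored by class (red cleared, gray kept, light blue raised, dark blue newly made). From dhd to Z600 the panels run from RNAs nearly absent in embryos to RNAs with no count in eggs, and bcd and CycB overlap between the groups.

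Newly made RNAs came from near 0 to high levels. In 209 of the 400 genes no egg library had a count, and in 305 none had over 3. Over all genes tested, 333 of 7565 had no egg count. The class rule itself asks for a low egg level. Genes without egg counts passed the filter only through the embryo libraries, which fixed their direction. For a gene without egg counts the fold is a lower bound, set against a floor of 3 counts in each egg library, which covers counting error only. The highest embryo level was that of a non-coding RNA, lncRNA:CR43887, with 1895, 1925 and 2756 TPM, at least 3280.4-fold higher. CG13427 reached 1577, 1923 and 2298 TPM and bard (chromosome 3R, 18081048 to 18082583, plus strand) 1663, 1821 and 2031 TPM, and bard had the highest bound of the class among the 10 largest increases, at least 8022-fold. Halo, a regulator of lipid droplet transport by kinesin, reached 998, 1355 and 1562 TPM, at least 2291-fold higher. dunk, which maintains myosin at cellularization, reached 932, 1166 and 1096 TPM, and term 567, 628 and 603 TPM. Replicate 2 was the lowest of the embryo libraries for each of these genes. SNCF (1001, 1122 and 1166 TPM) had a single egg count in all. CG14915, CG43184, CG4440 and CG14014, also among the 15 highest, had no egg count and lay at 1284 ± 384, 940.3 ± 77.3, 853 ± 166 and 823 ± 31.1 TPM (SD, n = 3). CG10035, among the 10 largest increases, lay at 574 ± 96.5 TPM (SD, n = 3), also from no egg count. CG34214 and CG15382, the other two of the 15 highest, had 3, 4, 2 and 2 and 13, 4, 12 and 7 counts in the egg libraries and 1055, 1459 and 1762 and 710.2, 793 and 720.3 TPM in embryos. In all, 73 newly made genes had a mean over 100 TPM in embryos, and 94 of the class carry only a CG number as their name. The spans of SNCF and dunk, like that of Z600, overlap another gene on the same strand, so the assignment of their reads is uncertain.

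Segmentation genes were newly made almost without exception. Of 15 gap and head genes, which divide the embryo into broad domains, 13 were newly made (5.29% of all genes tested). With at most 3 counts in an egg library, these 13 passed the filter only through the embryo libraries, which fixed their direction. The terminal gap gene tailless (tll) had no egg count and 94.5, 109.8 and 124 TPM in embryos and knirps (kni) none and 52.0, 57.5 and 73.3 TPM. Krüppel (Kr), with 1 to 3 counts per egg library, reached 76.3, 83.2 and 119 TPM, and giant (gt), with 0 to 2, 120.0, 138 and 124 TPM. None of these embryo libraries came near an egg library. The Sox gene D, with the highest level of the list in embryos after hunchback, reached 174, 237 and 279 TPM. Hunchback (hb), of which the mother supplies RNA, had 123, 112, 132 and 131 TPM in eggs and 232, 236 and 239 TPM in embryos (0.99, standard error 0.07, adjusted p = 2.12e-07), just under the limit of the raised class. cnc, which acts in the head, fell from 84.3 ± 4.56 TPM (SD, n = 4) to 39.6 ± 10.6 TPM (SD, n = 3). Of 11 pair-rule genes, which split the domains into stripes, all rose and 10 met the limit of 5 TPM. All but odd-paired passed the filter only through the embryo libraries, which fixed their direction. Runt (run) reached 57.6, 47.3 and 62.7 TPM (at least 497-fold higher), odd 57.5, 60.9 and 83.8 TPM, prd 46.1, 32.3 and 49.9 TPM, hairy (hry) 51.9, 49.6 and 74.0 TPM and eve 19.7, 17.9 and 28.0 TPM. Odd-paired (opa), the latest of the pair-rule genes to act, was the only one with more than a trace in eggs (0.580, 0.801, 0.986 and 0.729 TPM) and stood at 60.4, 41.4 and 74.5 TPM in embryos (6.28, standard error 0.23, adjusted p = 1.73e-09).

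Genes that act later in segmentation were low in embryos. Of 7 segment polarity genes 5 passed the filter, and wingless (wg) alone exceeded 5 TPM, with 18.2, 12.2 and 14.9 TPM. All 5 rose, but with at most 1 count in an egg library they passed the filter only through the embryo libraries. That fixed their direction. Engrailed (en) stood at 2.88, 2.89 and 2.20 TPM and hedgehog (hh) at 4.38, 2.49 and 2.78 TPM. Of 8 homeotic genes 4 passed the filter, all without a count in eggs and thus only through the embryo libraries, and none met the rule for newly made genes. Antp stood at 5.83, 2.87 and 4.76 TPM, Dfd at 5.96, 3.41 and 5.59 TPM, Ubx at 2.34, 1.56 and 2.08 TPM and abd-A at 1.83, 0.865 and 2.63 TPM. The posterior gene Abd-B had 31, 13 and 22 counts and Scr 27, 17 and 18 counts in the embryo libraries and neither was tested.

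Of 23 zygotic dorsoventral genes tested, 22 rose and 20 met the limit of 5 TPM. Apart from ush and srp, they passed the filter only through the embryo libraries, which fixed their direction. On the ventral side twist (twi) reached 57.7, 65.1 and 85.2 TPM from a single egg count and snail (sna) 34.0, 35.1 and 46.9 TPM from none. At the sides, sog, an inhibitor of BMP ligands, reached 41.4, 48.4 and 57.5 TPM and rhomboid (rho), which releases EGF ligands, 32.7, 39.4 and 63.0 TPM. On the dorsal side the homeobox gene zerknüllt (zen) went from 0.827, 0.372, 0.457 and 0.497 TPM to 255, 293 and 309 TPM. The BMP ligands differed in level: screw (scw), expressed all over the blastoderm, had 347, 333 and 272 TPM and decapentaplegic (dpp) 23.5, 26.5 and 29.5 TPM. The protease tolloid (tld), which frees BMP ligands from sog, had 122, 133 and 147 TPM (at least 1279-fold higher) and tsg 165, 177 and 185 TPM. The means of pnr, mirr and ush over the embryo libraries stayed under 5 TPM, and ush did not pass the test (0.32).

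Genes of neural fate and of the Bearded and Enhancer of split families also rose. Of 9 early neural genes tested, which include vnd and D of the lists above, all rose by at least 2-fold. They had at most 4 counts in an egg library and passed the filter only through the embryo libraries, which fixed their direction. Scute (sc) reached 111, 97.3 and 80.3 TPM, l(1)sc 70.8, 53.1 and 54.8 TPM, ac 51.0, 48.05 and 33.6 TPM and the Sox gene SoxN 44.6, 33.3 and 48.3 TPM, all from no egg count, and elav, a marker of differentiated neurons, 6.28, 5.81 and 8.61 TPM. In the Bearded and Enhancer of split families, which inhibit or transmit Notch signals, 9 of 15 genes passed the filter and all were newly made. With at most 1 count in an egg library, these 9 also passed the filter only through the embryo libraries. Tom was highest with 467, 377 and 529.7 TPM (at least 1247-fold higher), followed by BobA with 181, 156 and 187 TPM and Brd with 134, 79.7 and 98.5 TPM. In the Enhancer of split complex, E(spl)m4-BFM, which encodes a Bearded family protein, had 75.7, 64.6 and 63.4 TPM, and the highest of the repressor genes, E(spl)m7-HLH, 13.6, 16.4 and 12.5 TPM. The 6 untested genes, all of this complex, had at most 6 counts in any library.

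Sex determination combined zygotic signals with maternal partners. The X-linked signal genes sisA (96.2, 134 and 134 TPM), sc and run and the ligand gene upd1 (49.2, 57.0 and 52.6 TPM) had no egg count. The autosomal counterpart dpn reached 179.6, 158 and 153 TPM from 0.644, 0.636, 1.20 and 1.05 TPM. The maternal activator daughterless (da) was partly cleared (-1.06, standard error 0.09, adjusted p = 1.01e-06), the corepressor groucho (gro) was kept (0.71) and the inhibitor extramacrochaetae (emc) rose from 34.5, 30.3, 31.2 and 35.2 TPM to 118, 98.1 and 119 TPM (1.82, standard error 0.08, adjusted p = 4.27e-09). Sex-lethal (Sxl), their target, was present in both groups (58.1, 52.8, 56.4 and 56.6 TPM against 53.5, 114 and 73.9 TPM) and met no class rule. Replicate 3 of the embryos was the highest for Sxl, and the change of 0.60 fell to 0.26 and no longer passed the test without it. Its target msl-2 was newly made at 44.3, 36.5 and 57.5 TPM from 2.32, 1.78, 1.45 and 2.30 TPM, and roX1, the non-coding RNA that works with its product in dosage compensation, at 232, 316 and 306 TPM from 0.0240, 0.0431, 0.0636 and 0.0691 TPM.

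Cellularization, the closing of membranes around the blastoderm nuclei, combined newly made, raised and kept RNAs. nullo (222, 241 and 149 TPM), bottleneck (bnk, 251, 373 and 309 TPM) and dunk were newly made without any egg count, slam and kuk were raised, and 9 of 15 genes tested were kept (51.6% of all genes). Those kept included the septin gene pnut (0.77), Rho1 (0.72), anillin (scra, 0.50), myosin light chain (sqh, 0.57) and the formin dia (0.13). RhoGEF2 was partly cleared, from 112, 100.05, 114.9 and 111 TPM to 59.9, 28.9 and 42.8 TPM (-1.27, standard error 0.17, adjusted p = 3.84e-05). Sry-alpha, whose span overlaps that of another gene on the same strand, had no count in any library and could not be read. In gastrulation, the next step, Traf4 was newly made (43.3, 40.99 and 55.5 TPM), the receptor gene Tollo was raised (2.09), the ligand gene fog was kept (0.55) and T48, which recruits RhoGEF2, was partly cleared (-1.45, standard error 0.10, adjusted p = 1.73e-07).

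Long non-coding RNAs that passed the filter and changed were mostly higher in embryos. Of 108 such genes that passed the filter, out of 1898, 66 rose and 8 fell by at least 2-fold, beside 13.4% and 25.8% of all genes. Of the 1898, 28 were maternal and 33 newly made. Genes nearly without egg counts pass the filter only through the embryo libraries, so the filter set this direction in part. After CR43887 and roX1, the newly made one of highest level, marge, reached 138, 109 and 177 TPM. CR44504, named after its values were seen because its annotated span holds the mir-4, mir-5, mir-6 and mir-286 hairpins, which belong to the cluster of zygotic microRNAs that destroy maternal RNA, had no egg count and 28.5, 26.4 and 35.5 TPM. The structured RNAs were kept, with 7SK (snRNA:7SKa) at 10367, 10959.5, 10592 and 10926 TPM in eggs and 15697, 16391 and 14648 TPM in embryos, and the RNA of RNase MRP at 9874 ± 658 TPM in eggs (SD, n = 4; 0.55). Among the 15 highest of the kept class were also the RNA of RNase P (0.41), lncRNA:CR34335 (0.22) and the U4 copy snRNA:U4:39B (-0.06, which did not pass the test). Small nucleolar RNAs had 66 of 114 kept and 17 higher by at least 2-fold (8 on the ribosomal protein scale), shares close to those of all genes (51.6% and 13.4%). None was lower by at least 2-fold (2 on the ribosomal protein scale), against 25.8% of all genes. Many lie in introns of other genes. Their median was 0.15, and -0.00498 without Ctrl embryo replicate 3.

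Levels in the DomKD embryos, which the classes did not use, lay on the embryo side. In each of the 1085 cleared genes every DomKD library was below every egg library. The class was, however, chosen as at least 4-fold lower than these same egg libraries. Between Ctrl eggs and Ctrl embryos 84.9% of all genes did not overlap, and the share over all genes for DomKD embryos is not given here. The median level of the class was 6.14 to 7.99 TPM in the DomKD libraries, 8.08 to 10.6 TPM in the Ctrl embryos and 80.3 to 84.2 TPM in the eggs. Of the 400 newly made genes, 306 were over 5 TPM in every DomKD library and 43 in none. In every Ctrl embryo library 363 were over 5 TPM, but the class rule itself asks for a mean over 5 TPM there. The counts of the Ctrl and DomKD libraries can thus not be compared. Newly made genes held 3.37% ± 0.453 (SD, n = 4) of the counts in DomKD embryos. dhd stood at 153, 208, 95.2 and 153 TPM and slam at 1798, 1856, 2069.5 and 1415 TPM in the DomKD libraries. No test of the knockdown against the control was made here.

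The classes also differed in gene structure and position, given for protein-coding genes without a test. Newly made genes lacked introns in 24.5% of cases (84 of 343 genes), against 8.92% of all genes tested, 9.35% of cleared and 7.73% of kept genes. Their median exon length of 2036 nt was close to that of kept genes (2075 nt) and of cleared genes (2027 nt), while raised genes were longer, with a median of 4081 nt. The X chromosome carried 10.8% of newly made genes, 21.0% of cleared genes and 17.5% of all genes tested. A filter on level and a need for counts enter these shares, since long genes collect more counts.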

How the data were processed

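Total RNA of eggs and embryos was sequenced from stranded libraries. Trimming, mapping to dm6 and counting per gene with featureCounts were done by the authors in the snakePipes mRNA-seq workflow; the aligner, the strand setting and the treatment of shared reads are not given in the sources used here. Raw counts per gene, with gene lengths, were deposited by the authors. 1 column of counts, of no sample record, was not used. Names came from Ensembl release 115 (17626 of 17753 genes).

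TPM was computed from counts and lengths. Genes averaging 10 counts or more over the 7 libraries were tested with edgeR 4.0.16 (R 4.3.3; TMM, quasi-likelihood F test, condition alone, Benjamini-Hochberg, 0.05). DESeq2 1.42.0, other scalings, filters, limits, a replicate block and the omission of each library were tried as alternatives. On simulated counts of 7547 genes, 97% of 200 genes changed by 2-fold were recovered, with 5.825% false calls. The simulation gave all genes the same dispersion and changed those 200 alone. In the data 6489 of 7565 genes were called, so these rates do not carry over to the comparison reported here. Tables and plots used Python 3.11.15, pandas 2.3.3 and matplotlib 3.10.9.

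Named genes are members of the lists (the largest changes and highest levels of each), the 15 cleared, kept and raised genes of highest egg level, the 15 newly made genes of highest embryo level, and the 10 largest changes each way with at least 50 mean counts and no overlap. Members and lists were chosen with earlier results of these data known. List entries that matched no gene (Orc1, RPA2, zip, char, 18w, esg and betaTub60D) are not analysed here, nor are promoter sequences.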

Additional observations from a re-analysis of the deposited data

Results flagged for a closer look

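In the 4 egg libraries, a highest or lowest value apart from the rest was looked for in 200 named genes and found in 19, where chance gives about 1 in 20. For genes nearly absent from eggs these were single counts or nearly so: en (0.0415 TPM in replicate 3), hry (0.0496 in replicate 3), Ldh (0.121 in replicate 2), Kr (0.0801 in replicate 2), E(spl)m7-HLH (0.128 in replicate 4), twi (0.0493 in replicate 2), scw (0.0729 in replicate 3), SNCF (0.191 in replicate 3) and lncRNA:marge (0.117 in replicate 2), while tsg was at 0 TPM in replicate 4 alone. Egg replicate 2 was low for piwi (169 TPM, others from 180 TPM) and RnrS (969 TPM, others from 1050.4 TPM). Replicate 3 was high for smo (109 TPM, others up to 103 TPM) and Caf1-55 (478 TPM, others up to 458 TPM) and low for Vha13 (577 TPM, others from 623 TPM). Replicate 4 was high for fax (132 TPM, others up to 121 TPM) and CCT8 (407 TPM, others up to 394 TPM), and replicate 1 for Nap1 (1432 TPM, others up to 1350.4 TPM) and BNIP3 (14.4 TPM, others up to 11.6 TPM). Each gap was small beside the difference from the embryo libraries.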

How the results depend on the processing

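The counts of lower, higher, cleared, partly cleared, kept, raised and newly made genes stayed within 1.5 times of the reported values under the alternatives run, except for 4: 242 genes were newly made with a filter of 100 mean counts, 1538 were higher and 53 raised when scaled to ribosomal protein genes, and 243 were raised with a maternal limit of 1 TPM. The DESeq2 test gave 2992 lower and 3450 higher genes, and of the 1085 cleared and 400 newly made genes it shared all. Over the 7 fits without 1 library each, 1001 of 1085 cleared, 624 of 796 partly cleared, 3675 of 3905 kept, 123 of 147 raised and 383 of 400 newly made genes stayed in their class in every fit. The maternal limits were applied to the class counts alone.

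Scaling to ribosomal protein genes turned the sign of the median log2 change of egg activation genes (-0.24), the proteasome (-0.38) and its core (-0.0884), nuclear oxidative phosphorylation (-0.20), small nucleolar RNAs (-0.33) and spliceosomal RNAs (-0.35). It also turned Ald1 (-0.27), bcd (-0.29), twe (-0.10), plu (-0.21), polo (-0.31), tor (-0.25), RpS27A (-0.18), ush (-0.15), dia (-0.34), TyrRS (-0.0445), Rpt4 (-0.0745), geminin (-0.13), DCP2 (-0.28), RNaseP:RNA (-0.0714), lncRNA:CR34335 (-0.26) and eEF1alpha1 (-0.0677). These signs follow from the shift of all genes by -0.48 that this scaling makes by construction. A filter of 100 mean counts turned the medians of nuclear cycle genes (0.0242) and the values of snRNA:U4:39B (0.00679) and smg (0.00874). With no filter, which adds genes of few counts, the medians of the proteasome (-0.0912), P450 genes (1.90) and the vacuolar ATPase (0.33) turned. Without 1 library each, the ranges that crossed 0 were -0.0884 to 0.0333 for the median of nuclear cycle genes, -0.00498 to 0.38 for small nucleolar RNAs, -0.15 to 0.38 for spliceosomal RNAs, -0.36 to 0.22 for snRNA:U4:39B, -0.18 to 0.00043 for CycB and -0.0964 to 0.00612 for smg. Of 3757 values of named genes under the alternatives, 3679 changed neither sign nor side of the threshold, 37 no longer passed, 18 newly passed and 23 turned.

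No pairing of libraries by replicate number was seen, but so few pairs cannot exclude one. Deviations from the group means correlated by -0.15, -0.01 and 0.06 between eggs and embryos of the same number (2, 3 and 4), and not every library correlated best with its own number. With the number as a replicate block over replicates 2 to 4, 2875 genes were lower, 3415 higher, 1094 cleared and 407 newly made. The depth of 12642275 counts or more per library limits the test for genes of few counts: homeotic and segment polarity genes lie near the filter, and an RNA with no count in the eggs may still be present below 3 counts per library.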
